A study of Oryza sativa with 18 samples.

Results

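Heat shock proteins and HSFA2 heat shock factors of rice were followed here in callus RNA-seq as 9 genes chosen by their MSU locus numbers. They were HSP101 (LOC_Os05g44340), 5 class I small heat shock proteins (LOC_Os01g04370, LOC_Os01g04380, LOC_Os03g15960, LOC_Os03g16020 and LOC_Os03g16030), a cytosolic HSP90 (LOC_Os04g01740), HSFA2a (LOC_Os03g53340) and HSFA2c (LOC_Os10g28340). All 9 were among the 28211 distinct locus numbers of the pCPL and pOE tables. Only LOC_Os01g04370 and LOC_Os01g04380 were among the 7685 of the YIL25 table, which covers chromosomes 1 and 2 and the start of chromosome 3; the other 7 were not analysed in YIL25. Each member had 1 entry per table.

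The study concerns browning of callus, the mass of dividing cells grown from seed for rice transformation, and the gene BOC1 (LOC_Os03g12820), which encodes a protein of the SIMILAR TO RCD ONE family. Transcripts were measured in 18 libraries, in 6 groups of 3 biological replicates. YIL25 is an introgression line in which the indica variety Teqing carries segments of a wild Oryza rufipogon on the short arms of chromosomes 2, 3 and 5. pCPL is Teqing transformed with the promoter, coding region and 3' end of BOC1 from YIL25, and pOE is Teqing that overexpresses the YIL25 coding sequence of BOC1. Each line was set against the Teqing callus of its own comparison, named Teqing1 for YIL25, Teqing2 for pCPL and Teqing3 for pOE. All callus came from mature seeds on medium with 2,4-D, was kept in the dark and had been subcultured for 21 days, and no heat treatment is described. YIL25 differs from Teqing by whole chromosome segments and not by BOC1 alone, and the labels do not say from how many transformation events the pCPL and pOE libraries came.

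Heat shock proteins are molecular chaperones, which keep other proteins folded. Small heat shock proteins bind unfolding proteins and hold them in a form that can be rescued. HSP101, of the ClpB/HSP100 family, pulls proteins out of aggregates with the help of HSP70, and HSP90 folds signalling proteins and receptors. Their genes are switched on by heat shock factors, which bind heat shock elements in promoters. Plant HSFA2 factors are themselves made under heat and oxidative stress and sustain the expression of chaperone genes. In unstressed tissue, most class I small heat shock protein genes are nearly silent.

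Expression is given as FPKM, the fragments per kilobase of gene length, scaled to the mapped fragments of a library, so that levels of different genes are on 1 scale. The tables of the 3 comparisons were normalized separately. The pCPL libraries held 16620557 to 17448447 reads over genes and the Teqing2 libraries 17794714 to 19739117. The pOE libraries held 20178994 to 21893029 reads and the Teqing3 libraries 20934216 to 26298033, so a gene well under 1 FPKM rests on a few reads. BOC1 itself was at 102, 99.96 and 103 FPKM in pCPL, against 58.0, 57.5 and 57.4 FPKM in Teqing2, and at 577, 576 and 584 FPKM in pOE, against 64.7, 68.4 and 63.3 FPKM in Teqing3. Both lines thus had more BOC1 transcript than the Teqing callus of their table (adjusted p = 2.62e-08 and 2.55e-11, limma). The callus label was checked with marker lists. Of 3 genes listed as markers of dividing callus, 2 were above 1 FPKM in each of these 4 groups, and LOC_Os03g51690 was below 1 FPKM in each. Of 5 photosynthetic leaf markers, 1 exceeded 1 FPKM in pCPL, Teqing2 and Teqing3 and 2 did so in pOE. Their summed level was 12.3 to 13.1 FPKM in pCPL, against 52.9 to 61.8 in Teqing2. In pOE it was 5.64 to 6.97 FPKM, against 48.5 to 51.8 in Teqing3. Nearly all of the sum came from LOC_Os09g17740 in pCPL, Teqing2 and Teqing3. In pOE, LOC_Os09g17740 averaged 3.02 FPKM, against 49.0 in Teqing3. LOC_Os01g41710 went the other way, at 3.26 FPKM in pOE and 0.51 FPKM in Teqing3. The sum of 4 endosperm storage markers was 4.21 to 5.45 FPKM in pCPL, against 5.48 to 7.59 in Teqing2, and 3.26 to 5.47 in pOE, against 3.73 to 4.77 in Teqing3. The part of these markers in the heat shock results was not tested.

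Of the 6 members tested in the 2 transgenic lines, 5 differed from the Teqing of their own table in opposite directions. In pCPL, 5 of 6 tested members rose over Teqing2 and 0 fell, where 35% of all tested genes rose and 35.6% fell. In pOE, 5 of 6 fell below Teqing3 and 1 rose, where 36.8% of all tested genes fell and 35.3% rose. Neither of the 2 members measured in YIL25 differed detectably from Teqing1, where 72.7% of tested genes did (29.5% higher and 43.2% lower). HSP101, LOC_Os03g15960, LOC_Os01g04370, LOC_Os01g04380 and HSFA2c were the 5 that rose in pCPL and fell in pOE. Tests were made with limma on log2(FPKM + 1) over all genes whose mean exceeded 1 FPKM in the line or in its Teqing. LOC_Os01g04380 passed this filter only through its higher group, at 1.69 FPKM in pCPL (0.49 in Teqing2) and 1.07 FPKM in Teqing3 (0.48 in pOE). LOC_Os01g04370 did so in pOE, at 4.86 FPKM in Teqing3 and 0.82 FPKM in pOE. These 2 entered the counts through the group where they are high, so the counts are not free of the filter. A gene was said to rise or fall at a Benjamini-Hochberg adjusted p under 0.05, and called at a fold change of 2 on this scale with an adjusted p under 0.001. This scale understates the change of genes of low level. In bulk callus, fewer cells expressing a gene and less RNA per cell cannot be told apart.

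**Figure D1:**
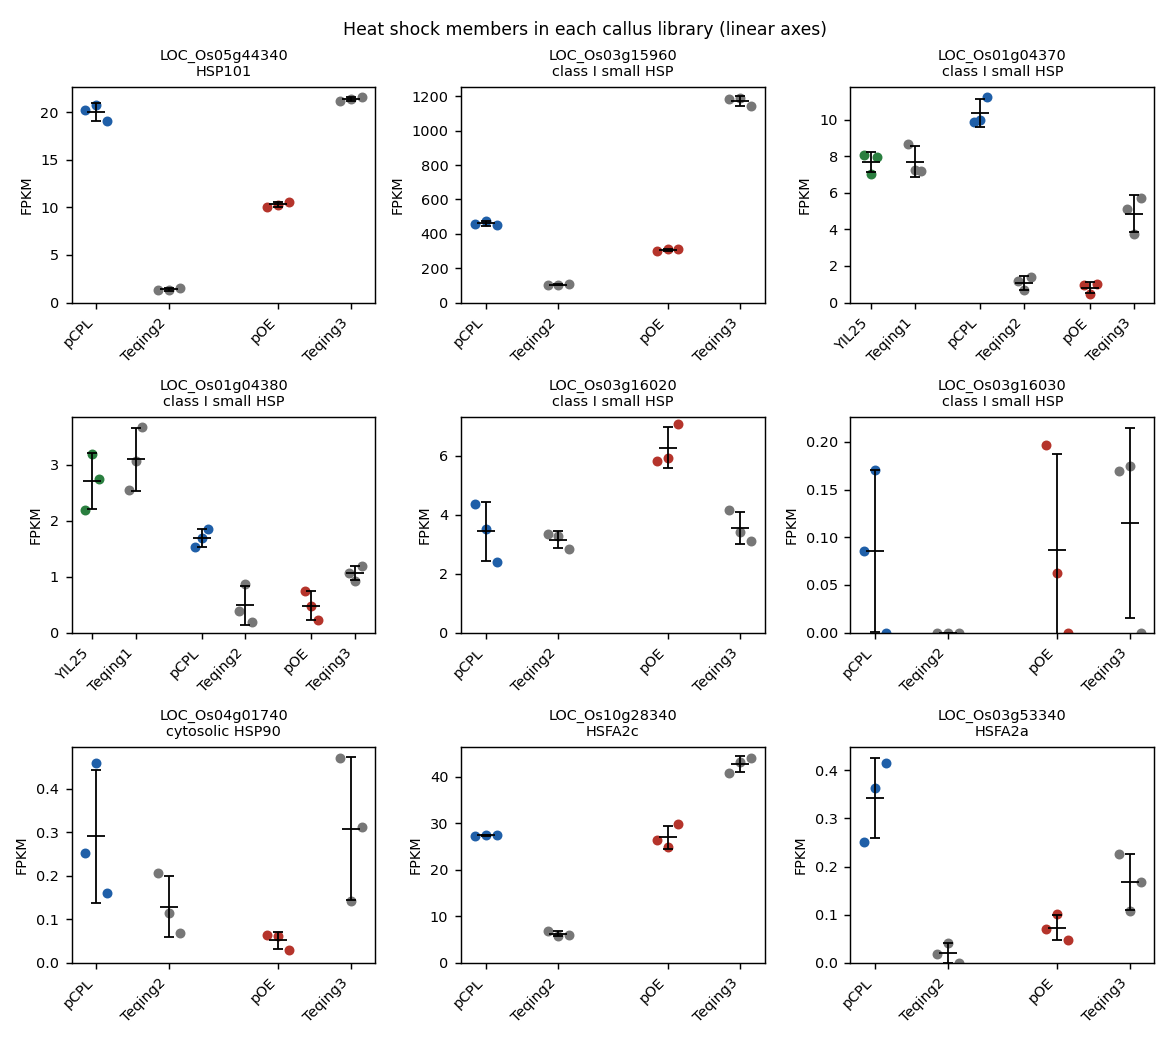
FPKM of the 9 members in each library (points), with the group mean and SD (n = 3), on linear axes that start at 0 and differ between panels; coloured points are YIL25 (green), pCPL (blue) and pOE (red), and grey points the Teqing callus of the same table. HSP101, LOC_Os03g15960 and HSFA2c were higher in pCPL than in Teqing2 and lower in pOE than in Teqing3. LOC_Os03g16030, LOC_Os04g01740 and HSFA2a stayed under 1 FPKM in pCPL, Teqing2, pOE and Teqing3, and were not measured in YIL25 and Teqing1.

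HSP101, the disaggregase, lies at chr5:25803609-25807160 (IRGSP-1.0) with 3209 bases of counted gene length. Its FPKM was 20.3, 20.8 and 19.0 in pCPL, against 1.31, 1.30 and 1.49 in Teqing2. Every pCPL library was thus far above every Teqing2 library, and the ratio of the means was 14.6. The difference was 3.15 on the log2(FPKM + 1) scale (SE 0.08, adjusted p = 2.04e-09), the largest among the tested members in pCPL. In pOE, HSP101 was at 10.1, 10.3 and 10.5 FPKM, against 21.1, 21.4 and 21.6 FPKM in Teqing3. Here the groups did not overlap either, but the line was the lower one, at a ratio of 0.482. The difference was -0.99 (SE 0.06, adjusted p = 3.27e-07), so HSP101 fell but narrowly missed the fold change of 2. With a pseudocount of 0.1 in place of 1, the difference was -1.05 and HSP101 was called.

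The class I small heat shock proteins differed widely in level. LOC_Os03g15960 (chr3:8805567-8806556) was the most abundant member in every group of these tables. It stood at 458, 473 and 449 FPKM in pCPL, against 103, 102 and 108 FPKM in Teqing2 (difference 2.13, SE 0.03, adjusted p = 1.27e-10). In pOE it stood at 302, 309 and 314 FPKM, against 1186, 1191 and 1142 FPKM in Teqing3 (difference -1.92, SE 0.03, adjusted p = 9.83e-11). The line and its Teqing were well apart in both tables, by a ratio of 4.41 in pCPL and 0.263 in pOE, and both differences were called.

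LOC_Os01g04370 (chr1:1948773-1949587) was at a few FPKM. Its values were 9.87, 9.995 and 11.3 FPKM in pCPL, against 1.16, 0.674 and 1.40 FPKM in Teqing2. They were 0.970, 0.493 and 1.001 FPKM in pOE, against 5.12, 3.75 and 5.70 FPKM in Teqing3. Again no library of a line overlapped with its Teqing, and the gene was called in both tables, higher in pCPL (2.47, SE 0.14, adjusted p = 2.52e-07) and lower in pOE (-1.68, SE 0.17, adjusted p = 1.57e-05). In the third table its values were 8.06, 7.04 and 7.96 FPKM in YIL25, against 8.69, 7.26 and 7.20 FPKM in Teqing1. These libraries overlapped, and no difference was detectable (-0.00, SE 0.09, adjusted p = 0.983).

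LOC_Os01g04380 (chr1:1951930-1952681) was near the lower limit of what was tested. It had 1.54, 1.69 and 1.85 FPKM in pCPL, from 19 to 24 reads a library, against 0.396, 0.877 and 0.197 FPKM in Teqing2, from 3 to 12 reads. In pOE it had 0.742, 0.475 and 0.228 FPKM, against 1.07, 0.933 and 1.20 FPKM in Teqing3. The gene rose in pCPL (0.88, SE 0.17, adjusted p = 0.0014) and fell in pOE (-0.49, SE 0.16, adjusted p = 0.0198), and neither change reached the fold of 2 on this scale. With limma-voom on recovered reads, the difference in pCPL was 1.92 (adjusted p = 0.00098, in a range of 0.000332 to 0.00689 over all settings) and the gene was called. The fall in pOE did not hold in every setting: the adjusted p was 0.0676 with limma-voom on recovered reads, 0.0672 without pOE replicate 3 and 0.0534 without Teqing3 replicate 1, within a range of 0.00816 to 0.0881 over the 11 settings that tested it. In pCPL, leaving out Teqing2 replicate 2, its highest Teqing2 library, brought the difference to 1.06 and the gene was called. In YIL25 it was at 2.19, 3.19 and 2.75 FPKM, against 2.55, 3.07 and 3.68 FPKM in Teqing1, with overlapping libraries (-0.14, SE 0.15, adjusted p = 0.413).

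LOC_Os03g16020 (chr3:8833718-8834470) was the exception among the small heat shock proteins. Its values were 4.37, 3.53 and 2.39 FPKM in pCPL, against 3.36, 3.28 and 2.82 FPKM in Teqing2, and the pCPL libraries spread to both sides of Teqing2 (0.07, SE 0.16, adjusted p = 0.715). In pOE it was at 5.81, 5.93 and 7.07 FPKM, against 4.15, 3.40 and 3.12 FPKM in Teqing3. All 3 pOE libraries were above all 3 Teqing3 libraries, so this gene rose in pOE (0.68, SE 0.12, adjusted p = 0.000603) where the other tested members fell. LOC_Os03g16030 (chr3:8834869-8835576) was hardly read at all. It had 1, 2 and 0 reads in pCPL, against 0 in each Teqing2 library, and 3, 1 and 0 reads in pOE, against 3, 3 and 0 in Teqing3. A count of 0 allows up to 0.21 to 0.233 FPKM in the Teqing2 libraries (3 reads each, counting error only), so no difference was detectable at this depth. Class I small heat shock protein genes are alike in sequence, and how reads shared between copies were assigned is not stated in the labels or the methods, so the split of reads among these 5 genes is uncertain.

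The cytosolic HSP90 LOC_Os04g01740 (chr4:483234-485978) stayed below 1 FPKM in pCPL, Teqing2, pOE and Teqing3 and was not tested. It had 0.253, 0.459 and 0.161 FPKM in pCPL, against 0.206, 0.114 and 0.0683 FPKM in Teqing2, which overlap. In pOE it had 0.0643, 0.0617 and 0.0297 FPKM, from 1 or 2 reads a library, against 0.471, 0.143 and 0.311 FPKM in Teqing3, from 5 to 17 reads. Every pOE library was below every Teqing3 library, and the adjusted p was 0.0229 with limma and no filter on low values. It was 0.0424 with limma-voom over all genes with at least 10 reads, a setting chosen after the data were seen. With 5 reads over the 3 pOE libraries, this difference rests on very few molecules.

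The heat shock factors of the HSFA2 group were at very different levels. HSFA2c (chr10:14746825-14749829) was well expressed, at 27.2, 27.5 and 27.5 FPKM in pCPL, against 6.91, 5.80 and 6.07 FPKM in Teqing2. The groups were far apart and the gene was called higher in pCPL (1.97, SE 0.07, adjusted p = 1.30e-08). In pOE its values were 26.4, 24.9 and 29.7 FPKM, against 40.8, 43.1 and 44.1 FPKM in Teqing3, and HSFA2c fell without reaching the fold of 2 (-0.64, SE 0.07, adjusted p = 1.97e-05). HSFA2a (chr3:30604067-30607159) was under 1 FPKM in pCPL, Teqing2, pOE and Teqing3 and not tested. It was at 0.252, 0.362 and 0.415 FPKM in pCPL, from 11, 16 and 19 reads, against 0.0186, 0.0413 and 0 FPKM in Teqing2, from 1, 2 and 0 reads. Each pCPL library was thus above each Teqing2 library, and limma-voom over all genes with at least 10 reads, a setting chosen after the data were seen, gave an adjusted p of 0.000292, beside 0.00103 with limma on FPKM and no filter. In pOE, HSFA2a was at 0.0699, 0.101 and 0.0484 FPKM, against 0.226, 0.108 and 0.169 FPKM in Teqing3, with an adjusted p of 0.223 in that setting and 0.098 without the filter.

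**Figure D2:**
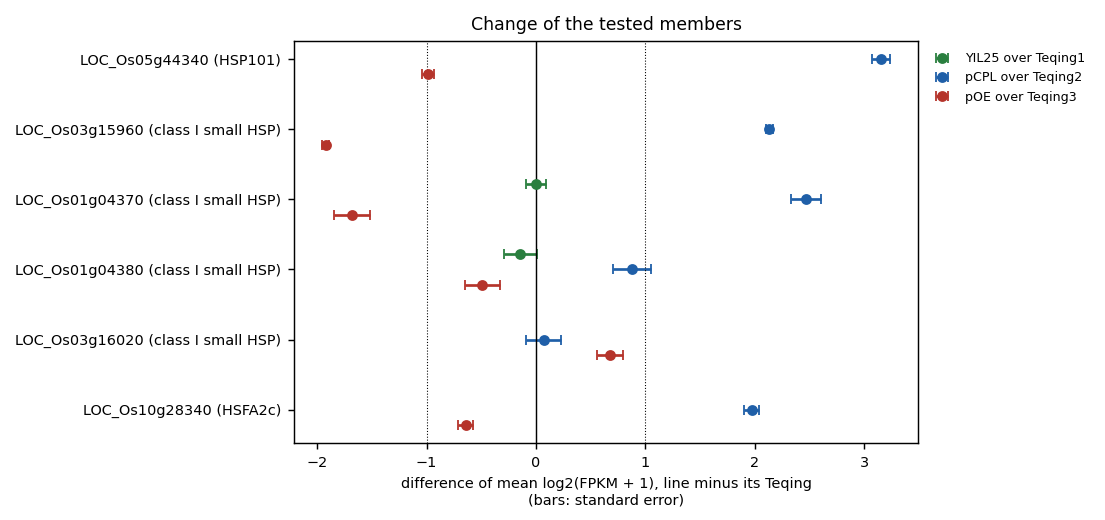
Difference of mean log2(FPKM + 1), line minus its Teqing, for the 6 tested members (points, with standard errors); dotted lines mark a fold change of 2. In pCPL (blue) 5 members lie above 0 and LOC_Os03g16020 at 0.07, in pOE (red) the same 5 lie below 0 and LOC_Os03g16020 at 0.68, and in YIL25 (green) both members measured lie near 0.

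Counted together, 4 of 6 tested members were called higher in pCPL and 0 lower, where 7.84% of all 21659 tested genes were called higher and 5.97% lower. In pOE, 2 of 6 were called lower and 0 higher, where 8.9% of 22122 tested genes were called lower and 6.95% higher. In YIL25, 0 of 2 were called by limma and 0 of 2 passed an unadjusted p of 0.05, where 21.1% of 8196 genes were called. The median difference of the tested members was 2.05 in pCPL and -0.81 in pOE, beside -0.01 and -0.00 over all tested genes. Of the genes tested in both tables, 5 of 6 members rose in pCPL and fell in pOE, as did 21.4% of all 20867. Because the members were chosen with earlier results of these data known, their counts beside all genes are a description and not a test.

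The direction of each comparison has to be read with the level in its own Teqing callus. Teqing2 and Teqing3 carry the same variety label but differed in these genes. Their values come from tables normalized separately, so they are set side by side with no test. HSP101 averaged 20.04 ± 0.91 FPKM in pCPL and 1.37 ± 0.11 FPKM in Teqing2, and 10.3 ± 0.21 FPKM in pOE and 21.4 ± 0.25 FPKM in Teqing3 (SD, n = 3 each). Teqing3 was thus 15.6 times Teqing2, and pCPL, which was so far above its own Teqing, was at 0.937 of the level of Teqing3. pOE, the lower group of its own table, was at 7.52 times Teqing2. All 6 tested members were higher in Teqing3 than in Teqing2, by a median ratio of 5.67, whereas 50.4% of all 20867 genes were, with a median ratio of 1.01. LOC_Os01g04380 was at 1.07 FPKM in Teqing3 and 0.49 FPKM in Teqing2, and LOC_Os01g04370 at 4.86 and 1.08 FPKM. Both were tested in pOE only through their level in Teqing3, so the count of 6 and its median ratio are not free of the filter. BOC1 was at 57.6 FPKM in Teqing2 and 65.5 FPKM in Teqing3.

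The order of the 4 groups differed between members. For HSP101, LOC_Os03g15960 and HSFA2c, pCPL was the second highest group and Teqing2 the lowest, and pOE was the second lowest and Teqing3 the highest. For LOC_Os03g15960 and HSP101 no neighbouring groups in this order overlapped, although HSP101 came to 20.8 FPKM in the highest pCPL library, next to 21.1 in the lowest Teqing3 library. For HSFA2c, pCPL and pOE could not be told apart, since the pCPL libraries lay within the range of the pOE libraries. LOC_Os01g04370 and LOC_Os01g04380 were highest in pCPL, and their pOE and Teqing2 libraries overlapped at the low end. In LOC_Os03g16020, pOE stood above the other 3 groups, which overlapped with each other. YIL25 and Teqing1 were between Teqing3 and pCPL for LOC_Os01g04370 and above all 4 groups for LOC_Os01g04380. Whether these levels reflect the calli, their culture or the preparation of the libraries was not tested.

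The other genes of the heat shock system were counted in lists of 59 loci, placed in families by locus number. In pCPL, 37 of 49 tested genes rose and 6 fell, with 20 called higher and 0 lower, where 35% of all tested genes rose, 35.6% fell, 7.84% were called higher and 5.97% lower. In pOE, 33 of 50 fell and 10 rose, with 9 called lower and 2 higher, where 36.8% of all tested genes fell, 35.3% rose, 8.9% were called lower and 6.95% higher. In YIL25, 6 of 15 tested genes rose and 5 fell, near the 29.5% and 43.2% of all genes, with 0 called in either direction by limma, where 21.1% of all genes were called. The median difference was 0.84 in pCPL, -0.57 in pOE and -0.13 in YIL25, and the median of all genes in YIL25 was also -0.13. Of the 48 genes tested in both transgenic tables, 31 rose in pCPL and fell in pOE (64.6%, beside 21.4% of all genes), and 38 were higher in Teqing3 than in Teqing2 (79.2%, beside 50.4%). The lists, too, were chosen with earlier results of these data known, so these shares are a description and not a test. Some listed genes passed the filter only through the group where they are high, so these counts are not free of the filter.

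**Figure D3:**
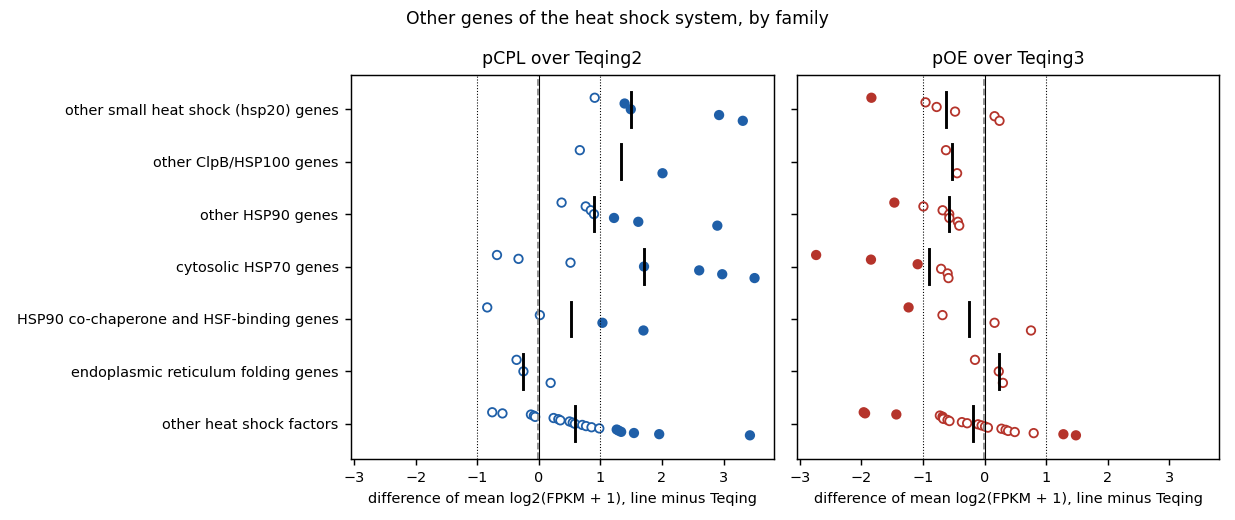
Difference of mean log2(FPKM + 1) of each tested gene of the other heat shock families (points; filled where called), with the family median (black bar) and the median of all tested genes (grey dashed line); dotted lines mark a fold change of 2. In pCPL the small heat shock, ClpB/HSP100 and HSP90 families lie wholly above 0, in pOE the ClpB/HSP100, HSP90 and HSP70 families lie wholly below 0, and the heat shock factors lie on both sides in each.

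Among the other small heat shock genes, 5 of 5 tested rose in pCPL and 4 were called, and 4 of 6 fell in pOE with 1 called. Of all tested genes, 35% rose and 7.84% were called higher in pCPL, and 36.8% fell and 8.9% were called lower in pOE. LOC_Os06g14240 (1.81 FPKM in pCPL, 0.07 in Teqing2) and LOC_Os02g54140 (1.61 and 0.40 FPKM) passed the filter in that table only through pCPL. LOC_Os02g52150 was the most abundant, at 270, 269 and 269 FPKM in pCPL, against 33.7, 35.4 and 34.5 FPKM in Teqing2 (2.93, adjusted p = 2.15e-11). It was at 321, 327 and 323 FPKM in pOE, against 439, 487 and 431 FPKM in Teqing3 (-0.48, adjusted p = 9.81e-06). This gene also rose in YIL25, with 153, 152 and 154 FPKM, against 95.0, 103 and 98.7 FPKM in Teqing1 (0.63, adjusted p = 7.89e-06). LOC_Os03g14180 and LOC_Os06g11610 rose in pCPL, by 3.31 and 1.49, and had differences of -1.84 and -0.78 in pOE, where both fell. The remaining class I genes, LOC_Os01g04360 and LOC_Os03g16040, were too low to test. LOC_Os01g04360 had 0 reads in each pOE library, against 5, 7 and 6 in Teqing3, and LOC_Os03g16040 had 0 FPKM in all 12 libraries.

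Both other ClpB/HSP100 genes, of the family of HSP101, rose in pCPL and fell in pOE, as did 21.4% of all genes tested in both. LOC_Os02g08490 was at 7.22, 7.50 and 7.52 FPKM in pCPL, against 1.37, 1.12 and 0.824 FPKM in Teqing2 (2.01, adjusted p = 3.32e-07), and it rose in YIL25 too (0.75, adjusted p = 0.00013). LOC_Os03g31300 differed by 0.66 in pCPL and -0.63 in pOE. In pCPL, 7 HSP70 genes were tested, of which 5 rose and 1 fell, beside 35% and 35.6% of all tested genes. All 6 HSP70 genes tested against Teqing3 were lower in pOE, where 36.8% of all tested genes fell. LOC_Os11g08460 was read from a different entry in each table, of 1764 bases in pCPL and 258 bases in pOE. Its entry in the pOE table was too low to test, so the numbers tested differ. LOC_Os01g62290 was at 112, 110 and 109 FPKM in pCPL, against 12.4, 13.0 and 14.1 FPKM in Teqing2 (2.98, adjusted p = 1.62e-10). It was at 64.2, 66.9 and 69.6 FPKM in pOE, against 146, 145 and 139 FPKM in Teqing3 (-1.09, adjusted p = 2.40e-08). In YIL25, unlike in pCPL, this gene fell, with 48.8, 51.3 and 48.8 FPKM, against 65.8, 76.6 and 70.3 FPKM in Teqing1 (-0.50, adjusted p = 0.000254). With median-of-ratios scaling, which raised the median of all genes in YIL25 to 0.05, its difference was -0.31. Whether its difference in YIL25 departs from that in pCPL was not tested. LOC_Os11g47760, the most abundant gene of the lists, reached 12241, 12425 and 12530 FPKM in pCPL, against 8797, 8621 and 8639 FPKM in Teqing2, a change of only 0.51 (adjusted p = 7.86e-08). LOC_Os03g16860 differed by 2.60 in pCPL and -0.59 in pOE.

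All 7 tested HSP90 genes other than the member rose in pCPL and all 7 fell in pOE, where 35% of all tested genes rose and 36.8% fell. LOC_Os08g39140 stood at 253, 251 and 248 FPKM in pCPL, against 32.7, 33.3 and 32.1 FPKM in Teqing2 (2.90, adjusted p = 2.15e-11). It stood at 158, 158 and 155 FPKM in pOE, against 322, 302 and 318 FPKM in Teqing3 (-0.99, adjusted p = 1.19e-08). LOC_Os09g30412, the most abundant of the family, changed less, at 1807, 1821 and 1825 FPKM in pCPL, against 1427, 1428 and 1369 FPKM in Teqing2 (0.37, adjusted p = 1.04e-06). In pOE its difference was -0.57, and LOC_Os12g32986 differed by 0.84 in pCPL and -0.57 in pOE. The HSP90 co-chaperone and HSF-binding genes were mixed. LOC_Os02g43020 rose in pCPL (1.03), fell in pOE (-0.68) and rose in YIL25 (0.42), LOC_Os06g16270 went the other way in pCPL (-0.84) and pOE (0.75), and LOC_Os09g20830 differed by 0.02 in pCPL (adjusted p = 0.779) and rose slightly in pOE (0.16).

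Genes for folding in the endoplasmic reticulum, a separate branch of the chaperone system, showed small differences, 0 of 3 called in either line. Of all tested genes, 7.84% were called higher and 5.97% lower in pCPL, and 6.95% and 8.9% in pOE. A count of 0 among 3 genes is near these shares and does not set the family apart. LOC_Os11g09280 was at 297, 293 and 288 FPKM in pCPL, against 352, 354 and 340 FPKM in Teqing2 (-0.25, adjusted p = 2.82e-05), and rose in pOE (0.23). LOC_Os02g02410 fell in pCPL (-0.36) and in YIL25 (-0.39) and rose in pOE (0.30), and its difference in YIL25 was -0.20 with median-of-ratios scaling. LOC_Os04g32950 rose in pCPL (0.19) and fell in pOE (-0.16). With limma-voom its difference in pOE was 0.01 (adjusted p = 0.801, in a range of 0.00174 to 0.805 over all settings).

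Of the other heat shock factors, 15 of 21 tested rose and 2 fell in pCPL, where 35% and 35.6% of all tested genes did. In pOE, 11 of 22 fell and 6 rose, not far from the 36.8% and 35.3% of all tested genes. LOC_Os04g48030 (1.04 FPKM in pCPL, 0.39 in Teqing2) rose in pCPL and passed the filter there only through pCPL. LOC_Os09g28200 (3.85 FPKM in pOE, 0.997 in Teqing3) rose in pOE and passed only through pOE. LOC_Os08g43334 had 30.5, 30.3 and 29.7 FPKM in pCPL, against 1.52, 1.98 and 2.21 FPKM in Teqing2, and its difference of 3.43 (adjusted p = 2.84e-09) exceeded that of every tested member. In pOE it had 28.3, 29.9 and 29.8 FPKM, against 49.0, 51.7 and 42.7 FPKM in Teqing3 (-0.68, adjusted p = 1.62e-05). LOC_Os01g53220 rose in pCPL (1.34) and in YIL25 (0.57) and fell in pOE, with 3.68, 3.49 and 4.95 FPKM, against 14.5, 12.3 and 10.9 FPKM in Teqing3 (-1.43, adjusted p = 8.78e-06). LOC_Os03g63750, the most abundant factor, differed by -0.06 in pCPL (adjusted p = 0.233) and fell in pOE (-0.73). In pCPL its adjusted p passed 0.05 in 3 of 13 settings, from 0.00588 with limma-voom to 0.596.

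The genes whose pattern was most like that of HSP101 were found by Pearson's r of log2(FPKM + 1) over the 12 libraries of the pCPL and pOE tables, among 13460 genes with a mean of at least 5 FPKM. The closest were LOC_Os08g39140 of the HSP90 list (r = 0.997), LOC_Os01g62290 of the HSP70 list (0.997), LOC_Os01g74020 (0.996), LOC_Os12g05230 (0.996) and LOC_Os02g01520 (0.995). LOC_Os01g74020 was at 49.6, 43.7 and 44.7 FPKM in pCPL, against 4.87, 4.16 and 3.82 FPKM in Teqing2, nearly as steep as HSP101. LOC_Os12g05230 had the same order of groups over a much smaller range, with 50.4 FPKM in pCPL and 32.0 FPKM in Teqing2 on average. Among the members, r to HSP101 was 0.965 for HSFA2c, 0.921 for LOC_Os03g15960, 0.697 for LOC_Os01g04370, 0.648 for LOC_Os01g04380 and 0.152 for LOC_Os03g16020. The 12 libraries hold only 4 group levels and share 2 normalizations, so these values describe the group pattern, and 12.2% of the genes searched had an r above 0.8.

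**Figure D4:**
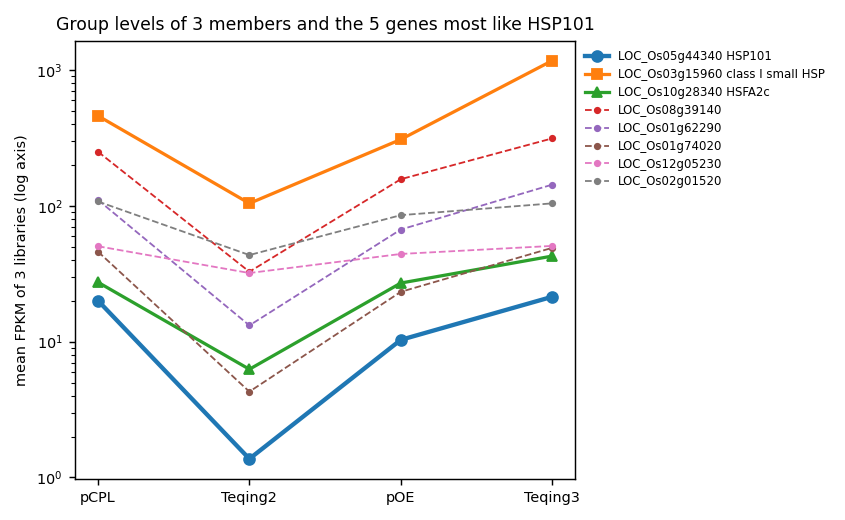
Mean FPKM of 3 libraries per group, on a log axis, for HSP101, LOC_Os03g15960 and HSFA2c (thick lines) and the 5 genes most like HSP101 (dashed); lines only join the values of a gene, and pCPL with Teqing2 and pOE with Teqing3 come from separately normalized tables. HSP101 was at 20.04 FPKM in pCPL, 1.37 in Teqing2, 10.3 in pOE and 21.4 in Teqing3, and each of the other genes was lowest in Teqing2.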

How the data were processed

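Total RNA of 18 callus libraries was sequenced by the authors as paired-end Illumina reads and mapped with TopHat2 to the IRGSP-1.0 genome. FPKM values were deposited by the authors in 1 table per comparison, each normalized separately; the submitters' processing notes also name Cufflinks, bcl2fastq and CASAVA 1.8. Columns with the authors' fold changes, p-values and adjusted p-values were not used. FPKM times gene length gave whole reads within 0.01 for 100% of values under 1000 reads in the pCPL and pOE tables, and the recovered reads were 1.01 times the library size behind the FPKM in pCPL, 0.97 to 0.979 times in Teqing2, 0.934 to 0.94 times in pOE and 1.05 to 1.06 times in Teqing3. In the YIL25 table, which holds part of the genome, the FPKM rest on 37589339 to 43391618 reads in YIL25 and 35443350 to 39912022 in Teqing1, and at least 86.4% of values under 1000 reads came out whole in YIL25 and 86.6% in Teqing1.

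Each comparison of a line with the Teqing of its table used limma 3.58.1 in R 4.3.3 (trended prior, log2(FPKM + 1), mean above 1 FPKM in either group, Benjamini-Hochberg over all genes). The fit was tested on simulated data. Replicates varied by more than read sampling (chi-squared per gene 1.96 to 4.31). Alternatives were median-of-ratios scaling, filters of 0 and 5 FPKM, a pseudocount of 0.1, a call at adjusted p 0.05 alone, a replicate block, limma-voom on recovered reads (pCPL and pOE only), and leaving out each library. Named genes were the 9 members, BOC1, the 3 most abundant genes of each list and the 5 genes most like HSP101. A few others are named only as markers, for the filter or for their entries. The members and lists were chosen with earlier results of these data known, and the lists rest on locus numbers of rice heat shock families, not on annotation in the files. Promoter sequences were not used here, and a planned count of heat shock elements was not made.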

Additional observations from a re-analysis of the deposited data

Results flagged for a closer look

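For 5 members, every pCPL library was above every Teqing2 library and every pOE library below every Teqing3 library. Of the other heat shock genes, 43 of 49 tested in pCPL and 44 of 50 tested in pOE had no overlap with their Teqing, in either direction. The share of all genes without overlap was not counted, so the separation of the 5 members has no such share beside it. At an adjusted p under 0.05 (limma), 21.4% of all genes tested in both rose in pCPL and fell in pOE. The differences in pCPL and in pOE, on the log2(FPKM + 1) scale, were 3.15 and -0.99 for HSP101 (LOC_Os05g44340), 2.47 and -1.68 for LOC_Os01g04370, 0.88 and -0.49 for LOC_Os01g04380, 2.13 and -1.92 for LOC_Os03g15960, and 1.97 and -0.64 for HSFA2c (LOC_Os10g28340). The difference between the lines was not tested, because their tables were normalized separately.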

How the results depend on the processing

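Of the 5 members that rose in pCPL and fell in pOE, all kept both directions in every setting that tested them, and LOC_Os01g04380 alone lost an adjusted p of 0.05, in pOE. At an adjusted p of 0.05 with no fold, 5957 genes passed in YIL25, 15284 in pCPL and 15955 in pOE, beside 1730, 2992 and 3506 called, and 6 members passed in pOE, beside 2 called. A filter of 5 FPKM left 1 member called in pOE, since LOC_Os01g04370 was no longer tested. Limma-voom over all genes with at least 10 reads, chosen after the data were seen, called 5279 genes in pOE. With limma-voom with the 1 FPKM filter, the median of all genes in pOE was 0.17 rather than -0.00, with 3041 called higher and 2041 lower, beside 1537 and 1969; HSP101 was then at -0.89 and HSFA2c at -0.49. Median-of-ratios scaling shifted the median in YIL25 to 0.05 from -0.13, with 861 called higher and 771 lower, beside 689 and 1041, and no member was called. Leaving out 1 library at a time gave 1361 to 1478 genes in YIL25, 2876 to 2975 in pCPL and 3357 to 3465 in pOE, with 0, 4 to 5 and 2 members called. Same-numbered libraries did not deviate together (r of -0.03 to 0.01), so the numbers do not pair the samples; with a replicate block, 1268, 2981 and 3482 genes and 0, 4 and 2 members were called. Depth limits LOC_Os03g16030, LOC_Os04g01740 and HSFA2a, which rest on 0 to 19 reads a library.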
